A study of Mus musculus with 12 samples.

Results

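The genes described here encode parts of the Janus kinase (JAK) and STAT signalling pathway: the transcription factors Stat2, Stat3, Stat5a and Stat6, the kinases Jak1 and Jak2, and the feedback inhibitors Socs1, Socs3 and Cish. They were chosen by gene symbol, and all 9 were found among the 25919 rows of the count table. The comparison is between libraries labelled CD40 at day 2 (4 libraries) and libraries labelled Kupffer cells at day 0 (2 libraries), all from livers of C57BL/6 mice 7 weeks old. Kupffer cells are the resident macrophages of the liver, and CD40 is a receptor of antigen-presenting cells. The labels name no treatment, transgene, sorting gate or event from which the days are counted, and nothing in them ties a library to an animal of its own. The p-values therefore rest on the scatter among these libraries, some or all of which may be technical. Cell label and day differ together between the groups and cannot be told apart.

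In this pathway a cytokine brings together receptor chains whose inner parts carry JAK kinases. The kinases phosphorylate the receptor and the STATs that dock on it, and paired STATs move to the nucleus and bind DNA. SOCS proteins and CIS, the product of Cish, are made in response to STATs and dampen the same receptors, as inhibitors of the kinase, as competitors for docking sites or as adaptors for ubiquitin ligases. In macrophages the pathway carries signals of interferons, of the interleukin-6 and interleukin-10 families, of interleukin-4 and of colony-stimulating factors.

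The libraries were sequenced from the 3' end of poly(A) RNA. Their total counts ranged from 725683 to 2271228 in CD40 day 2 and were 1612435 and 688498 in Kupffer day 0. The letters a to d name the libraries of a group by column and carry no rank, and levels are given as CPM, the counts scaled to an equal library size. The 2 other groups of the series, Kupffer cells at day 7 and Ly6C CD40-negative cells at day 2, were not read by gene. The first column of each falls along the whole table with 1 step up, as if sorted apart from the gene names, whereas the CD40 day 2 columns have 7642 to 9144 steps up. The later columns have 6531 steps up in Kupffer day 7 and 6964 to 10648 in the Ly6C group, so their steps alone do not mark them as sorted. They were left out with the first columns. The column of Kupffer day 0 a also falls along the whole table, with 0 steps up, as the column by which the rows are ordered would. By gene name its levels followed those of CD40 day 2 with Spearman's rho of 0.589 to 0.643 and those of Kupffer day 0 b with 0.952, across 9852 genes, which are not independent replicates. Cd40 itself was at 382, 375, 340 and 225 CPM in CD40 day 2, against 20.1 and 18.1 CPM in Kupffer day 0. All 14 markers of the liver's sinusoidal endothelium had lower levels in CD40 day 2. Together they took 0.0715% to 0.126% of counts there, against 2.22% and 2.35% in Kupffer day 0. Of 14 Kupffer cell markers, 9 were lower and 1 higher, with 0.111% to 0.394% of counts in CD40 day 2 and 0.761% and 0.69% in Kupffer day 0. Of 10 tested stellate cell or fibroblast markers, 10 were lower (0.00345% to 0.0124% of counts in CD40 day 2, 0.19% and 0.153% in Kupffer day 0), and Col1a1 was at 0 counts in CD40 day 2. Of these 10, 8 met the minimum count of the filter used below in Kupffer day 0 alone, and their direction is partly set by that. The same holds for 3 Kupffer cell and 2 endothelial markers. Of 10 classical monocyte markers, 9 were higher, with 1.9% to 2.44% of counts in CD40 day 2 against 0.279% and 0.289%. The Kupffer day 0 libraries thus held more endothelial than Kupffer cell marker counts. Every difference below goes with these marker differences, and their part in it was not tested. Kupffer day 0 a and b differed in other markers, at 0.0988% and 0.327% of counts for neutrophils, 0.0713% and 0.183% for hepatocytes and 0.00614% and 0.121% for B cells. In bulk RNA, fewer cells of a type and less RNA per cell cannot be told apart.

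All 9 genes passed the filter on low counts. By edgeR's quasi-likelihood test, with p-values adjusted over the 9852 genes tested and a threshold of 0.05, 3 of the 9 were higher in CD40 day 2 (Stat2, Stat3 and Stat5a), 3 were lower (Jak1, Socs3 and Cish), and 3 did not pass (Stat6, Jak2 and Socs1). Over all genes tested the test called 53.4%, 23.2% higher and 30.2% lower, so the shares among the 9 genes are near the background. The libraries of the groups did not overlap for 8 of the 9 genes, against 66.6% of all genes tested. The median log2 fold change was 0.22 for the 9 genes and -0.10 for all genes tested. The 6 libraries can be split in 15 ways, so an exact permutation test of 1 gene cannot give a p under 0.067.

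**Figure D1:**
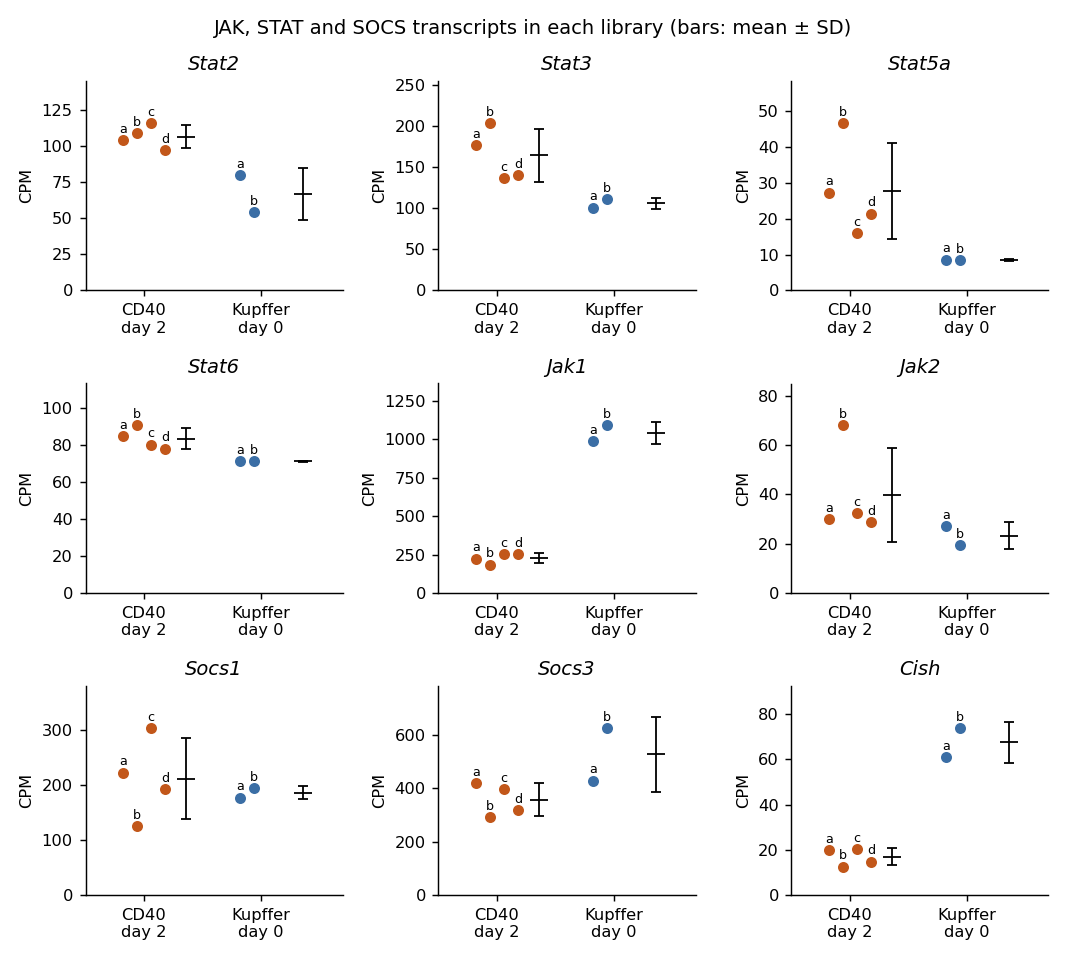
Level of each gene in CPM (vertical axes, each starting at 0) in the 4 CD40 day 2 libraries (orange, a to d) and the 2 Kupffer day 0 libraries (blue, a and b), with the mean and SD of each group in black. Jak1 and Cish show the widest gaps between groups, and CD40 day 2 library b stands highest for Jak2 and Stat5a.

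Jak1, the kinase shared by receptors of interferons, the interleukin-6 family and the common gamma chain, had the lowest adjusted p of the 9 genes. It was at 224, 184, 254 and 254 CPM in CD40 day 2, against 990 and 1090 CPM in Kupffer day 0. The groups lay far apart, and each varied little within itself. Its level was 4.52-fold lower in CD40 day 2 (log2 fold change -2.18 ± 0.17 SE, 95% interval -2.55 to -1.80, adjusted p = 5.69e-06), and 13.5% of the genes tested had a log2 fold change as low or lower. The call held in each of the 12 alternatives, with log2 fold changes of -2.34 to -2.02. Jak1 lies on chromosome 4 from 101152367 to 101265282 on the minus strand (GRCm38, GENCODE M21).

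Jak2, the kinase of receptors for interferon gamma, granulocyte-macrophage colony-stimulating factor and erythropoietin, did not pass the test. It was at 30.0, 67.9, 32.3 and 28.6 CPM in CD40 day 2 and at 27.0 and 19.5 CPM in Kupffer day 0. Library b stood well above the other 3 CD40 libraries, which lay just above Kupffer day 0 a. The log2 fold change was 0.65 ± 0.39 SE (95% interval -0.22 to 1.52, adjusted p = 0.184), and this interval holds 0 as well as the estimates for Stat2 and Stat3. Without library b the log2 fold change was 0.40. Jak2 lies on chromosome 19 from 29251828 to 29313080.

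Of the 4 STAT genes, Stat2, Stat3 and Stat5a rose and Stat6 did not pass the test. Stat2 encodes a STAT activated by type I interferon that works in a complex with IRF9. It was at 104, 109, 116 and 97.1 CPM in CD40 day 2, against 79.8 and 54.3 CPM in Kupffer day 0. The CD40 libraries kept close together, with a coefficient of variation of 7.38%, and the distance between the Kupffer libraries was larger than that among the CD40 libraries. The level was 1.55-fold higher (log2 fold change 0.63 ± 0.20 SE, adjusted p = 0.0247, range over the alternatives 0.0149 to 0.207). The call was lost without Kupffer day 0 b, which differs from a in the markers given above (log2 fold change 0.42, adjusted p = 0.207), and without CD40 day 2 c (0.59, adjusted p = 0.0642). It was also lost with library totals alone (0.47, adjusted p = 0.0904) and with a minimum of 10 counts in 4 libraries (0.51, adjusted p = 0.0606).

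The stretch upstream of Stat2 is shown because it holds a match to the interferon-stimulated response element (ISRE), a motif bound by complexes of STAT2 and IRF9, as does the one upstream of Socs1. The pattern searched on both strands was GAAA, any 2 bases and GAAA again, and capitals mark its matches. It occurs in 3.44% of the 32851 RefSeq promoter windows of 300 bases (250 before to 50 after a start site, GRCm38.p6), and in those of 2 of the 9 genes. In Stat2 the match starts 222 bases before the RefSeq start site, and in Socs1 overlapping matches start 83 and 77 bases before it. A match describes the letters in the window and is not evidence of binding.
Stat2 (chr10:128270248-128270347, plus strand): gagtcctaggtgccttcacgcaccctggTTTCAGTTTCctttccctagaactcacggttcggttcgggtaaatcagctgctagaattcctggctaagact
Socs1 (chr16:10785557-10785656, minus strand): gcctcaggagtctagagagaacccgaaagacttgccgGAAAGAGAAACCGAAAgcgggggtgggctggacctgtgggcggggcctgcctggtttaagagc

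Stat3, the main STAT of interleukin-6 and interleukin-10 signals, was at 177, 204, 137 and 140 CPM in CD40 day 2 and at 101 and 111 CPM in Kupffer day 0. The groups did not overlap, and libraries a and b stood above c and d. Its rise was 1.54-fold (log2 fold change 0.63 ± 0.21 SE, adjusted p = 0.0305, range over the alternatives 0.0203 to 0.198). It was not called without Kupffer day 0 a (0.55, adjusted p = 0.198), without Kupffer day 0 b (0.70, adjusted p = 0.0945) or without CD40 day 2 a (0.59, adjusted p = 0.0562), nor with library totals alone (0.46, adjusted p = 0.0917) or a minimum of 10 counts in 4 libraries (0.50, adjusted p = 0.0762).

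Stat5a, a STAT of colony-stimulating factor and interleukin-2 family signals, had the largest rise of the 9 genes and the lowest counts. It was at 27.3, 46.7, 15.9 and 21.4 CPM in CD40 day 2, against 8.61 and 8.36 CPM in Kupffer day 0. Every CD40 library was above both Kupffer libraries, and library b held 2.93 times the level of library c. The level was 3.02-fold higher (log2 fold change 1.60 ± 0.49 SE, 95% interval 0.51 to 2.68, adjusted p = 0.0195, range over the alternatives 0.000508 to 0.142), resting on 134 counts in CD40 day 2 and 21 in Kupffer day 0. It kept its size but not its call without Kupffer day 0 a (1.63, adjusted p = 0.142) or without Kupffer day 0 b (1.59, adjusted p = 0.0758). Stat5a and Stat3 lie tail to tail on chromosome 11 (100859351 to 100885169 on the plus strand and 100885098 to 100939540 on the minus strand), and their 3' ends overlap by 72 bases. Of the distinct 50-base stretches in the last 600 bases of Stat5a transcripts, 4.72% also occur in Stat5b and 1.81% occur in Stat3 on the other strand. Whether the counting used strand is not given in the sources used here, so part of the Stat5a counts is uncertain. Stat5b itself lay the other way, at 15.4 ± 3.02 CPM in CD40 day 2 and 23.5 ± 1.7 CPM in Kupffer day 0. It did not pass the test (log2 fold change -0.60 ± 0.29 SE, adjusted p = 0.107).

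Stat6, the STAT of interleukin-4 and interleukin-13, was at 84.6, 90.5, 80.1 and 78.0 CPM in CD40 day 2 and at 71.2 and 71.0 CPM in Kupffer day 0. The CD40 libraries all lay above the Kupffer libraries, by a small margin. The log2 fold change was 0.22 ± 0.17 SE (95% interval -0.17 to 0.61, adjusted p = 0.305), and this interval ends just under the estimates for Stat2 and Stat3. Stat2 and Stat6 lie on chromosome 10, from 128270559 to 128292849 and from 127642986 to 127660957.

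**Figure D2:**
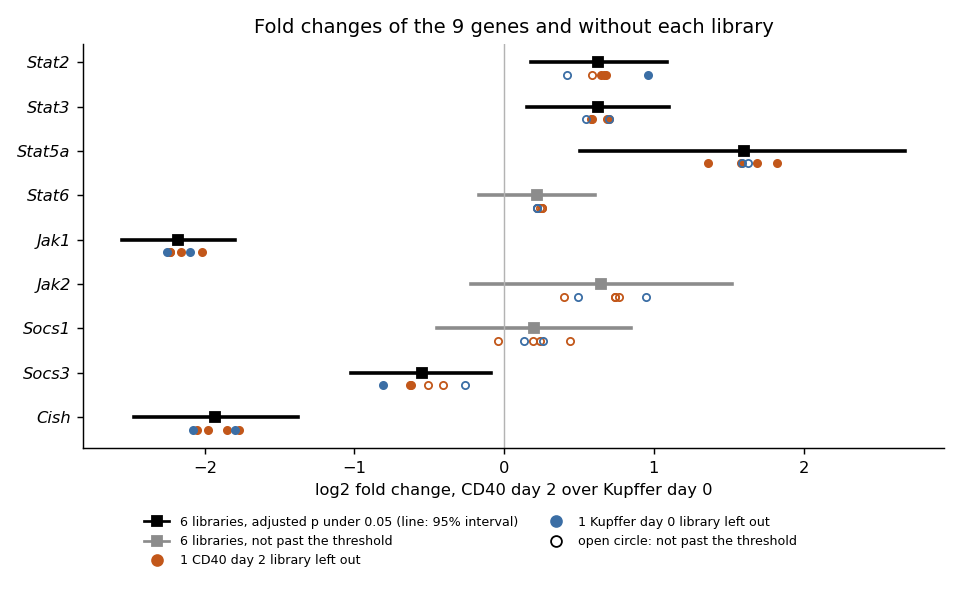
Log2 fold change of CD40 day 2 over Kupffer day 0 (horizontal axis) for each gene: squares with lines give the estimate and 95% interval from all 6 libraries (black where the adjusted p is under 0.05), and circles the estimate with 1 library left out, open where it did not pass the threshold. Jak1 and Cish stay at -2.25 to -2.02 and -2.08 to -1.77 whichever library is left out, whereas Stat2, Stat3, Stat5a and Socs3 lose their call in at least 1 case each.

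Of the 3 inhibitor genes, Cish and Socs3 fell and Socs1 did not pass the test. Cish encodes CIS, a feedback inhibitor induced by STAT5. It was at 20, 12.7, 20.5 and 14.9 CPM in CD40 day 2, against 60.9 and 73.8 CPM in Kupffer day 0. The groups were well separated, and the spread within each was small beside the gap. The level was 3.80-fold lower (log2 fold change -1.93 ± 0.24 SE, 95% interval -2.47 to -1.38, adjusted p = 0.000122), and the call held in each of the 12 alternatives (-2.09 to -1.77). Of the 50-base stretches at the 3' ends of Cish transcripts (chromosome 9, 107296026 to 107302784), 17.4% lie opposite the antisense loci Gm17040 and Gm17041.

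Socs3, the feedback inhibitor of receptors that carry gp130, was at 419, 293, 397 and 319 CPM in CD40 day 2 and at 428 and 625 CPM in Kupffer day 0. The gap between CD40 day 2 a and Kupffer day 0 a was small, and the Kupffer libraries differed from each other by more than that gap. Its fall was 1.47-fold (log2 fold change -0.55 ± 0.21 SE, 95% interval -1.02 to -0.09, adjusted p = 0.0467, range over the alternatives 0.0124 to 0.449). It was not called with DESeq2 (-0.52, adjusted p = 0.106) or with relative log expression size factors (-0.52, adjusted p = 0.0664). Leaving out Kupffer day 0 b, the library with more neutrophil, hepatocyte and B cell marker counts, also ended the call (-0.26, adjusted p = 0.449), as did leaving out CD40 day 2 b (-0.41, adjusted p = 0.102), c (-0.62, adjusted p = 0.0586) or d (-0.51, adjusted p = 0.0848). Socs3 lies on chromosome 11 from 117966079 to 117970047.

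Socs1, an inhibitor that binds the kinase domain of JAKs and restrains interferon gamma signals, was at 222, 126, 303 and 192 CPM in CD40 day 2 and at 177 and 194 CPM in Kupffer day 0. It was the only one of the 9 genes whose groups overlapped: library b lay below both Kupffer libraries and library c far above them. The log2 fold change was 0.20 ± 0.29 SE (95% interval -0.45 to 0.85, adjusted p = 0.585), and it was -0.04 without library c. Socs1 lies on chromosome 16 from 10782240 to 10785536.

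The start regions of Cish and Socs3, the inhibitors that fell, are shown because they hold the gamma-activated site (GAS) letters TTCNNNGAA, the pattern bound by STAT pairs, which reads the same on both strands. Capitals mark the matches. This pattern occurs in 8.30% of the 32851 promoter windows, and in those of 2 of the 9 genes. The Cish window holds 2 matches, at positions 1 and 12 counted from the RefSeq start site, and the Socs3 window holds 1, which starts 154 bases before it. None of these letters was found in the windows of Jak1, Jak2, Stat3, Stat5a or Stat6, for either pattern.
Cish (chr9:107296654-107296683, plus strand): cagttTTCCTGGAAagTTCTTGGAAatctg
Socs3 (chr11:117969467-117969566, minus strand): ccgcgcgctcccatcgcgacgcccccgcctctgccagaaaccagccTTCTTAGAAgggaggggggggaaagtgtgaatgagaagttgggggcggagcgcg

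Within the CD40 group, library b held the highest or lowest level for 8 of the 9 genes, and library c for 6. How often b was the extreme over all genes tested was not counted. The 8 of 9 is therefore not read as a trait of these genes. Over the 9852 genes tested, b followed the other CD40 libraries with Spearman's rho of 0.923 to 0.94. Among the other 3 the rho was 0.942 to 0.977. Library b also had the fewest total counts of the group (725683), and the part of this in its extremes was not tested. Library b lay well apart from its nearest neighbour for Jak2 (67.9 against 32.3 CPM), Stat5a (46.7 against 27.3 CPM) and Socs1 (126 against 192 CPM). For Cish, Socs3 and Stat6 the next library was close. Library b was the highest of the 4 for Stat3, Stat5a, Stat6 and Jak2, and the lowest for Jak1, Socs1, Socs3 and Cish. On the log2 scale it lay 0.85 above the mean of the 4 libraries for Jak2 and 0.82 above it for Stat5a, and 0.67 below it for Socs1 and 0.36 below it for Cish. The 12 markers of conventional dendritic cells took 0.152% of counts in library b, against 0.0692% to 0.0877% in the other 3 CD40 libraries, and 0.0601% and 0.0658% in Kupffer day 0. Of the 11 tested, 4 were higher and 3 lower (Zbtb46, Dpp4 and Fscn1) in CD40 day 2, and Htr7 was at 0 counts in Kupffer day 0. Of these 11, 6 met the minimum count in CD40 day 2 alone, with Htr7, Xcr1 and Ccr7 among them. Their direction is partly set by that. Xcr1, a chemokine receptor of cross-presenting dendritic cells, was at 14.6, 86.3, 10 and 5.96 CPM in CD40 day 2, and at 2.30 and 0 CPM in Kupffer day 0. Ccr7, the chemokine receptor of migrating dendritic cells, was at 68.3, 259, 24.1 and 12.5 CPM in CD40 day 2, and at 4.02 and 15.3 CPM in Kupffer day 0. Both genes were picked after their values were seen, and neither passed the test (adjusted p = 0.0527 for Xcr1 and 0.0582 for Ccr7). Both were highest in b, like Jak2 and Stat5a. Other lists set b apart among the 4 CD40 libraries as well. Library b had the lowest share of classical monocyte markers (1.9%, against 2.08% to 2.44%) and Kupffer cell markers (0.111%, against 0.246% to 0.394%). Its share of T or NK cell markers was the highest (0.0329%, against 0.0238% to 0.0269%). The cell cycle genes Ccnd1, Ccnd2, Ccnd3 and Birc5, picked after their values were seen, were highest in b too. The part of these differences in the values of b was not tested.

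**Figure D3:**
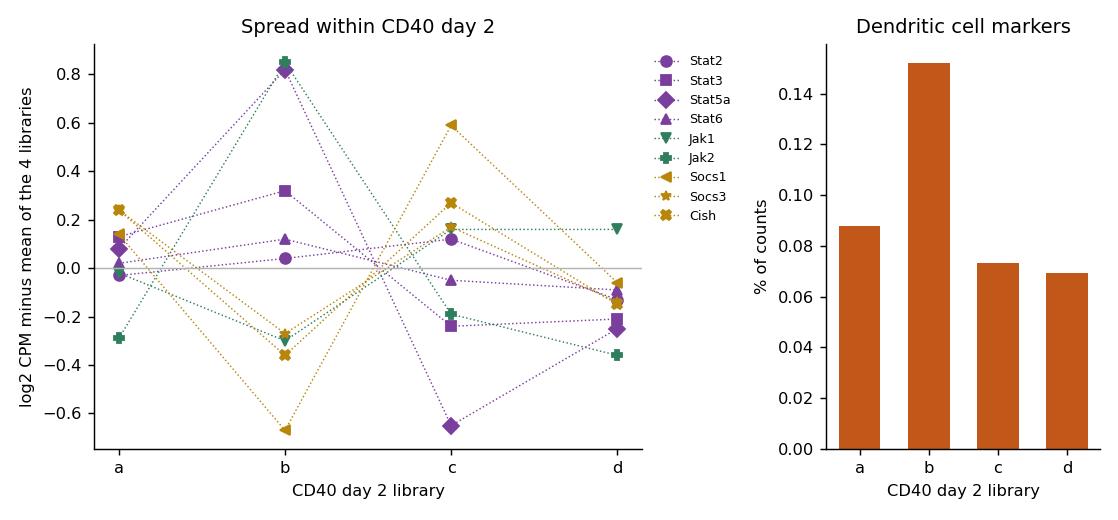
Left, log2 CPM of each gene minus its mean over the 4 CD40 day 2 libraries (vertical axis) by library (horizontal axis), with STAT genes in purple, JAK genes in green and SOCS family genes in gold. Right, percent of counts in the 12 dendritic cell markers, at 0.152% in library b and 0.0692% to 0.0877% in the others; in b the SOCS family genes lie below the mean and all 4 STAT genes above it.

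Beside these, 9 other genes of the same families were counted, and 8 were tested: 1 was higher, 2 were lower and 5 did not pass (median log2 fold change -0.32, against -0.10 over all genes tested). Over all genes tested, 23.2% were higher and 30.2% lower. Tyk2, the kinase that works with JAK1 on the type I interferon receptor, was 2.42-fold higher (53.7 ± 5.66 CPM in CD40 day 2, n = 4, and 21.5 ± 2.86 CPM in Kupffer day 0, n = 2, mean ± SD; adjusted p = 0.00109). Jak3, the kinase of the common gamma chain, was at 28.2, 24, 17.3 and 16.1 CPM in CD40 day 2, and at 10.9 and 11.1 CPM in Kupffer day 0, a log2 fold change of 0.91 ± 0.36 SE that did not pass (adjusted p = 0.0547). It passed with relative log expression size factors (0.95, adjusted p = 0.0473) and without CD40 day 2 d (1.03, adjusted p = 0.042). With Jak1 4.52-fold lower and Jak2 not called, the kinase genes did not share a direction among those that passed. Of the 5 other SOCS genes tested, Socs5 and Socs2 were lower. Socs4 (log2 fold change -0.32, adjusted p = 0.449), Socs6 (0.17, adjusted p = 0.733) and Socs7 (-0.31, adjusted p = 0.585) did not pass. Socs5, which met the minimum count in Kupffer day 0 alone, was at 4.55, 2.83, 3.64 and 3.57 CPM in CD40 day 2, against 25.8 and 25.1 CPM in Kupffer day 0, a log2 fold change of -2.76 ± 0.33 SE (adjusted p = 9.08e-05). Socs2, which restrains growth hormone signals, was at 9.10, 21.2, 3.64 and 4.77 CPM in CD40 day 2, against 35 and 34.8 CPM in Kupffer day 0 (-2.13 ± 0.52 SE, adjusted p = 0.00653). Leaving out Kupffer day 0 a ended its call, at the highest adjusted p of the alternatives (8.46e-08 to 0.0698). Its highest CD40 value was in library b, where Cish was lowest.

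Of 30 listed cytokines that signal through JAKs, 21 were analysed here. Of these, 14 were too low to test and 7 were tested, of which 5 were higher and 0 lower by edgeR and by DESeq2 (median log2 fold change 3.27), and 0 were lower at an unadjusted p under 0.05 either. Over all genes tested by edgeR, 23.2% were higher and 30.2% lower. Il10 and Il12b met the minimum count in CD40 day 2 alone. Il12b could hardly come out lower, so the split and the median of these cytokines are partly set by the filter. Il10 did not pass (4.7 ± 4.44 CPM in CD40 day 2, 5.82 ± 2.32 CPM in Kupffer day 0, adjusted p = 0.893). The 5 higher genes were Ebi3, Il27, Il12b, Osm and Il6, the last of them named after its value was seen (44.4 ± 22.5 CPM in CD40 day 2, 11.2 ± 6.04 CPM in Kupffer day 0, adjusted p = 0.0129). Ebi3 and Il27 encode the chains of interleukin-27, which signals through JAK1: Ebi3 was at 276 ± 30.5 CPM in CD40 day 2 and 28.7 ± 0.787 CPM in Kupffer day 0, and Il27 at 175, 86.3, 161 and 97.1 CPM in CD40 day 2, against 10.3 and 11.1 CPM in Kupffer day 0. Il12b, the p40 chain of interleukin-12, held 357 counts in CD40 day 2 and 2 in Kupffer day 0, so that the scaled level was 77.3 times as high (95% interval for counting error 21.2 to 641). Osm encodes oncostatin M, a gp130 cytokine that macrophages make, and was at 206, 60.8, 199 and 172 CPM in CD40 day 2, against 11.5 and 13.9 CPM in Kupffer day 0, a log2 fold change of 3.70 ± 0.52 SE (adjusted p = 0.000254). Library b was lowest of the CD40 group for Osm and Il27, as it was for Socs3.

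Receptor chains that carry JAKs moved both ways. Of 41 listed, 29 were tested, with 12 higher, 11 lower and 6 not called (median 0.31), against 23.2% higher and 30.2% lower among all genes tested. Of the 29, 5 met the minimum count in CD40 day 2 alone and 5, Osmr and Epor among them, in Kupffer day 0 alone, and their direction is partly set by that. Il2rg, the common gamma chain that pairs with JAK3, was 8.40-fold higher (1170 ± 222 CPM in CD40 day 2 and 140 ± 36 CPM in Kupffer day 0, adjusted p = 9.34e-06). Csf2rb, the shared beta chain of the granulocyte-macrophage colony-stimulating factor and interleukin-3 receptors, which uses JAK2, was at 204, 151, 224 and 176 CPM in CD40 day 2, against 36.7 and 36.2 CPM in Kupffer day 0 (5.18-fold, adjusted p = 2.14e-05). It has a close paralog, Csf2rb2, and reads from either may be counted for the other. Of the 4 lower chains with the lowest adjusted p, 3 belong to the gp130 group. Il6st, which encodes gp130 itself, was at 76.5, 25.5, 21.8 and 28 CPM in CD40 day 2, against 532 and 713 CPM in Kupffer day 0, a log2 fold change of -4.06 ± 0.41 SE (adjusted p = 2.89e-05). Its partner chains Lifr, of the leukaemia inhibitory factor receptor, and Osmr, of the oncostatin M receptor, were 43.6-fold and 34.2-fold lower (adjusted p = 5.80e-07 and 2.32e-05). Lifr was at 16.0 ± 4.36 CPM in CD40 day 2 and 732 ± 236 CPM in Kupffer day 0, and Osmr at 1.40 ± 1.59 CPM in CD40 day 2 and 52.6 ± 14.3 CPM in Kupffer day 0. Epor, the erythropoietin receptor, held 3 counts in CD40 day 2 and 63 in Kupffer day 0, so that the scaled Kupffer level was 48.5 times as high (95% interval for counting error 15.9 to 241). These falls stand beside those of the endothelial and stellate marker lists given above, and their part was not tested. Il6ra, the chain that binds interleukin-6, went the other way (198 ± 69.9 CPM in CD40 day 2, 88.9 ± 6.30 CPM in Kupffer day 0, adjusted p = 0.00923) and, like Il10ra (131 ± 7.84 and 32.6 ± 6.69 CPM, adjusted p = 3.57e-05), was named after its value was seen. Il10rb, the partner chain of Il10ra, was lower (177 ± 30.9 and 316 ± 2.46 CPM, adjusted p = 0.00345) and was also named after its value was seen.

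**Figure D4:**
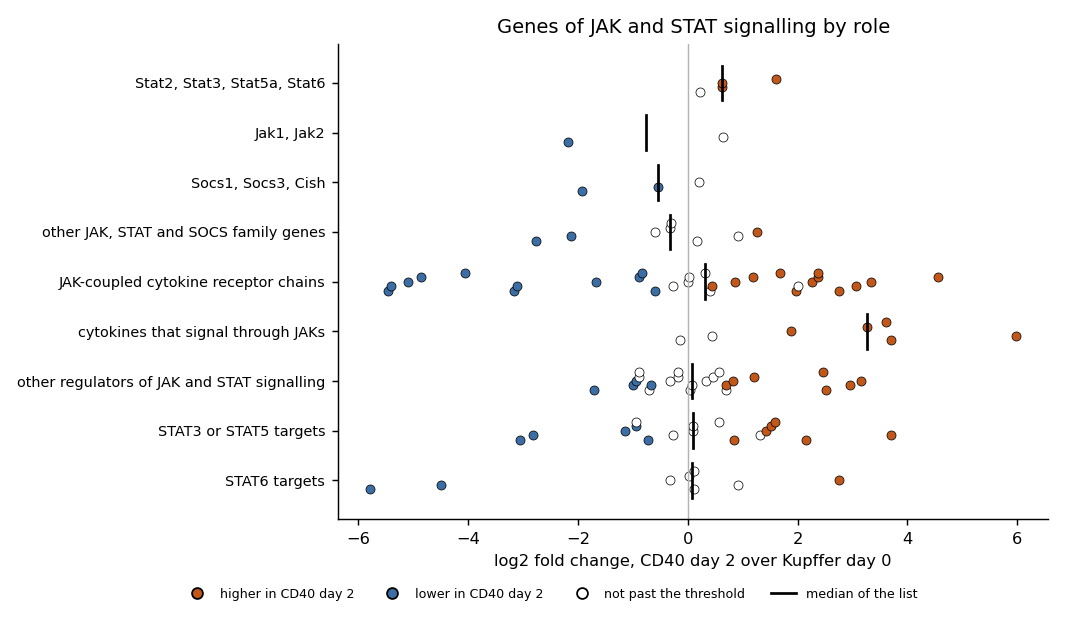
Log2 fold change of CD40 day 2 over Kupffer day 0 (horizontal axis) for each tested gene of the pathway, in rows by role; orange points were higher and blue points lower at an adjusted p under 0.05, white points did not pass, and black bars mark each row's median. The 9 genes in the first 3 rows lie between -2.18 and 1.60, a narrower range than that of the receptor chains.

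Among 23 other regulators of the pathway, 7 were higher, 4 lower and 12 not called (median 0.08). With 53.4% of all genes called, this share is near the background. The 3 with the lowest adjusted p were tyrosine phosphatases that act on JAKs or STATs. Ptpn6, which encodes the haematopoietic phosphatase SHP-1, was at 1110, 985, 1010 and 941 CPM in CD40 day 2, against 113 and 114 CPM in Kupffer day 0, a log2 fold change of 3.16 ± 0.18 SE (adjusted p = 1.16e-06). Ptpn1 was at 1030 ± 92.6 CPM in CD40 day 2 and 187 ± 3.20 CPM in Kupffer day 0 (adjusted p = 3.63e-06), and Ptprc, which encodes the leukocyte phosphatase CD45, at 625 ± 58.8 and 109 ± 5.07 CPM (adjusted p = 3.86e-06). Usp18, an inhibitor at the type I interferon receptor, was at 529, 472, 345 and 263 CPM in CD40 day 2, against 59.7 and 41.8 CPM in Kupffer day 0 (7.70-fold, adjusted p = 6.06e-05). Its direction was opposite to that of Cish and Socs3. Sh2b3, an adaptor that restrains JAK2, was lower (34.2 ± 5.62 CPM in CD40 day 2, 65.0 ± 2.61 CPM in Kupffer day 0, adjusted p = 0.00355), and so was Pias2, of the inhibitors of activated STATs (5.16 ± 1.81 and 18.1 ± 2.01 CPM, adjusted p = 0.00395). Pias2 met the minimum count in Kupffer day 0 alone, and its direction is partly set by that.

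Genes often used as readouts of single STATs were set beside the STAT genes. Of 17 tested for STAT3 or STAT5, 6 were higher, 5 lower and 6 not called (median 0.10), again beside 53.4% of all genes called. Osm, counted among the cytokines, is also among these 6 higher genes. So is Bcl6, which met the minimum count in CD40 day 2 alone. Cebpd was 8.34-fold lower (48.1 ± 13.5 CPM in CD40 day 2, 415 ± 80.5 CPM in Kupffer day 0, adjusted p = 5.98e-06), and Id1, a helix-loop-helix inhibitor, was at 19.3 ± 7.75 and 142 ± 19.8 CPM (adjusted p = 2.81e-05). Hif1a, the hypoxia factor gene, was at 158 ± 25.4 CPM in CD40 day 2 and 59.1 ± 3.14 CPM in Kupffer day 0 (adjusted p = 0.000386). The immediate early genes Junb and Fos were also lower (adjusted p = 0.0106 and 0.0178), but leaving out Kupffer day 0 b ended both calls (adjusted p = 0.13 and 0.166, the highest of alternatives that began at 0.00042 and 5.17e-09). Of 8 tested for STAT6, 1 was higher, 2 were lower and 5 did not pass (median 0.07). The lower ones were the mannose receptor gene Mrc1, which liver endothelial cells also express (15.8 ± 5.24 CPM in CD40 day 2, 866 ± 46.5 CPM in Kupffer day 0), and the chemokine gene Ccl24 (4.15 ± 1.12 and 89.1 ± 31.5 CPM). Ccl24 met the minimum count in Kupffer day 0 alone, and its direction is partly set by that. Chil3, the higher one, is also on the monocyte marker list (681 ± 359 and 100 ± 15.3 CPM, adjusted p = 0.00432), and leaving out Kupffer day 0 a put its adjusted p at the threshold and ended the call (1.02e-28 to 0.05 over the alternatives). Pparg, a nuclear receptor gene, did not pass (13.5 ± 9.90 and 7.91 ± 0.631 CPM, adjusted p = 0.272), but did without CD40 day 2 b (adjusted p = 0.0318).

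The genes whose levels moved most like each of the 9 across the 6 libraries were found by the root mean square difference of log2 CPM, centred on each gene's mean, among 5669 genes with a mean of at least 20 CPM. Nearest to Jak1 were Fut11 and Zscan26, at 0.055 and 0.083 on the log2 scale. Nearest to Cish were Clock and Fez2 (0.09 and 0.141), and to Socs3 Mgst3 and Shkbp1 (0.103 and 0.104). Stat2 lay nearest to Cox7c and Cdc5l (0.06 and 0.077), Stat3 to Cops6 and Sri (0.036 and 0.046), and Stat6 to Cdc37 and Eny2 (0.029 and 0.048). Stat5a, Jak2 and Socs1, the genes with the widest spread within CD40 day 2 (coefficients of variation of 48.1%, 47.5% and 34.8%), had their neighbours at 0.115 to 0.168. These were Sdad1 and Tbc1d8 for Stat5a, Bzw2 and Pcna for Jak2, and Ubash3b and Tmem141 for Socs1. None of the nearest neighbours was another of the 9 genes.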

How the data were processed

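Poly(A) RNA of mouse liver samples was sequenced from the 3' end with barcodes and unique molecular identifiers, per the labels' protocols. The authors deposited raw counts per gene symbol, with no normalization. The submitters' processing notes name the build GRCm38.p6 and the tool DESeq2 1.22.2. Which aligner and counter were run, and whether identifiers or reads were tallied, is not given in the sources used here. Columns carry the group but no replicate number.

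The 6 libraries compared entered a two-sided quasi-likelihood test in edgeR 4.0.16 under R 4.3.3, after filterByExpr with its defaults and TMM scaling, with Benjamini-Hochberg adjustment over 9852 genes. CPM and means ± SD use the TMM-adjusted totals of these genes (n = 4 for CD40 day 2, n = 2 for Kupffer day 0). Each standard error was obtained by dividing the log2 fold change by the root of the F statistic. Alternatives were other scalings, filters, DESeq2 1.42.0, limma-voom 3.58.1 and leaving out each library. The fit was tested on simulated data. Positions come from GENCODE M21 and promoters from RefSeq (GRCm38.p6). All 9 genes matched. Counting intervals cover counting error only. Libraries of a group differed by more than sampling noise in every pair (3.17 to 11.7 chi-square units per degree of freedom).

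Members, gene lists and the naming rule were chosen with earlier results of these data known. From each list the 4 genes with the lowest adjusted p were named, with up to 2 called in the less common direction. Some results are not reported here.

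Markers of hepatocytes (8 of 9 tested lower, 1 higher), neutrophils (1 of 9 lower), T or NK cells (0 of 3 called), B cells (2 of 3 lower) and erythroid cells (0 of 4 called) were also counted by edgeR. Of the hepatocyte markers, 2 met the minimum count in Kupffer day 0 alone, and Ass1, the 1 higher, in CD40 day 2 alone. The B cell calls, Igkc and Jchain, rest on Kupffer day 0 b (997 and 141 CPM), as Kupffer day 0 a (40.2 and 3.44 CPM) lay within the range of CD40 day 2 (33.7 to 87.7 and 1.82 to 8.34 CPM). At an unadjusted p under 0.05, 0 of the T or NK cell markers and 0 of the erythroid markers passed.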

Additional observations from a re-analysis of the deposited data

Results flagged for a closer look

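Jak2 in CD40 day 2 library b stood apart from the other 3 libraries of its group. Its level there was 67.9 CPM, against 30.0, 32.3 and 28.6 CPM, so that the gap to the nearest library took up 0.905 of the whole range of the group, above Dixon's 95% critical value for 4 samples. Chance gives such a gap in about 1 of 20 groups, and 9 genes were looked at. It rests on 48 counts in library b.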

How the results depend on the processing

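In each of 12 alternatives Jak1 and Cish were lower, and Jak2 and Stat6 were higher without passing the threshold. With library totals alone the median of all genes was -0.27, against -0.10, Stat2 (0.47) and Stat3 (0.46) were not called, and 1 of the 9 genes was higher. With a minimum of 10 counts in 4 libraries Stat2 (0.51) and Stat3 (0.50) were not called, leaving 1 of the 9 genes higher, and the lower calls were 1 of the other family genes, 6 receptor chains and 1 STAT6 target. Socs3 was not called with relative log expression size factors (-0.52) or DESeq2 (-0.52), which called 2 other regulators lower. Without a filter 2 STAT6 targets were higher, and 2 of the other family genes were higher both there and with relative log expression size factors. With library totals alone and with the minimum of 10 counts in 4 libraries, all 9 log2 fold changes were below those of the main fit. That minimum also drops genes that reach 10 counts in the 2 Kupffer day 0 libraries alone, so these could not be called lower. Beyond this and the fewer genes and samples that some settings leave, why these calls changed was not tested.

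Leaving out each library in turn gave 1406 to 2551 genes higher and 1800 to 2963 lower, the fewest without Kupffer day 0 a, where the lone Kupffer library borrows its spread from the CD40 libraries. It gave 0 to 3 of the 9 genes higher, 0 without Kupffer day 0 b, and 2 to 3 lower. Log2 fold changes ran from 0.42 to 0.96 for Stat2, 0.55 to 0.70 for Stat3, 1.36 to 1.82 for Stat5a, -0.81 to -0.26 for Socs3, and -0.04 to 0.44 for Socs1, with -0.04 without CD40 day 2 c. Calls lower were 1 to 2 for the other family genes, 2 to 4 for other regulators and 2 to 6 for STAT3 or STAT5 targets, and calls higher 1 to 2 for the other family genes and 0 to 2 for STAT6 targets. For the 29 other named genes, 337 of 344 values kept direction and side of the threshold, 4 were lost, 3 were gained and 0 reversed. Socs5, Osmr, Epor and Ccl24 had no value under the stricter filter, since their counts lay mostly in the 2 Kupffer day 0 libraries and it asks for 4 libraries.

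No paired analysis was possible because the columns carry no replicate numbers. Counts of 9 to 71 per CD40 library limit Cish, Stat5a and Jak2.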
